A study of Rattus norvegicus with 3 samples.

Results

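The genes described here encode potassium channel subunits and were taken by name: every gene of the series table whose symbol starts with Kcn, followed by at least 1 more letter and a digit. This gave 93 transcript entries, which were summed to 87 genes of the 16629 genes and unnamed regions in the table. The data came from 3 libraries of polyadenylated RNA. All were made from adult rats of the outbred Sprague-Dawley strain on a lighting cycle of 14 h light to 10 h dark, with no genetic change or drug named for any group. The pineal gland was sampled at zeitgeber time 7 (ZT7, hours after lights on, midday) and at ZT19 (midnight). The third library, also from ZT7, held equal amounts of RNA from 15 other tissues: retina, pituitary, cortex, cerebellum, hypothalamus, midbrain, hindbrain, spinal cord, adrenal gland, heart, skeletal muscle, lung, liver, kidney and small intestine. The labels do not say how many animals went into a library. Each group had 1 library, so no difference below has a replicate check and none has a p-value. In bulk RNA, fewer cells of a type and less RNA per cell cannot be told apart, and a transcript made in 1 of the 15 pooled tissues is diluted by the others.

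Potassium channels let potassium ions leave or enter a cell and thereby set its resting potential and the shape of its electrical signals. Pore-forming subunits fall into voltage-gated (Kv), calcium- or sodium-activated, inwardly rectifying (Kir) and two-pore domain (K2P) families, and auxiliary subunits change their gating, trafficking or assembly. The pinealocyte, the melatonin-making cell of the gland, shares its ancestry with retinal photoreceptors, and the noradrenaline that reaches it at night changes its membrane potential as well as its cAMP. Values are given in FPKM, the number of sequenced fragments relative to transcript length and to all mapped fragments of a library, so levels of different genes can be set side by side per length. Ratios are log2 ratios of FPKM + 1, a scale on which changes of weakly expressed genes look smaller than they are. For a ratio, the higher of the 2 libraries had to show an FPKM of at least 1.

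Marker levels went with the tissue labels. The 6 pinealocyte markers summed to 5698 FPKM by day, 6658 by night and 53.9 in the mixed tissues. The 5 oligodendrocyte markers summed to 30.0, 16.1 and 4617 FPKM, and the 4 endothelial markers found to 15.8, 13.5 and 74.8, with Cldn5 listed at 0 in all 3. Fibroblast and meningeal markers (5) summed to 229, 166 and 355 FPKM, and microglial markers (5) to 30.5, 24.6 and 44.6. Depth, estimated from the step that 1 fragment makes in single-exon olfactory receptor genes, was 8.83, 5.29 and 9.49 fragments per kb at 1 FPKM by day, by night and in the mixed tissues. The night library was therefore the shallowest, at 59.9% of the day library, an estimate that rests on 4 gene models. The 95% exact Poisson bounds given below are for 1 kb of transcript, are narrower for a longer one, and cover counting error only.

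Few potassium channel genes carried most of the signal in the gland. Of the 87 genes, 32 reached an FPKM of 1 by day, 29 by night and 73 in the mixed tissues, while the shares of all genes that did were 57.6%, 56.5% and 70.3%. Genes listed at 0 numbered 18, 26 and 4 of the 87, beside 3992, 4378 and 2877 of all 16629 genes. The summed FPKM of the 87 genes was nevertheless alike in the 3 libraries, at 561 by day, 553 by night and 538 in the mixed tissues. By day Kcnh6, Kcnj14 and Kcne2 held 54.6% of this sum, and by night Kcnab2, Kcnh6 and Kcnj14 held 61.5%. In the mixed tissues the 3 highest genes held 19.4%. The 10 highest genes of each library made up 87.4%, 89.1% and 43.4%.

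**Figure D1:**
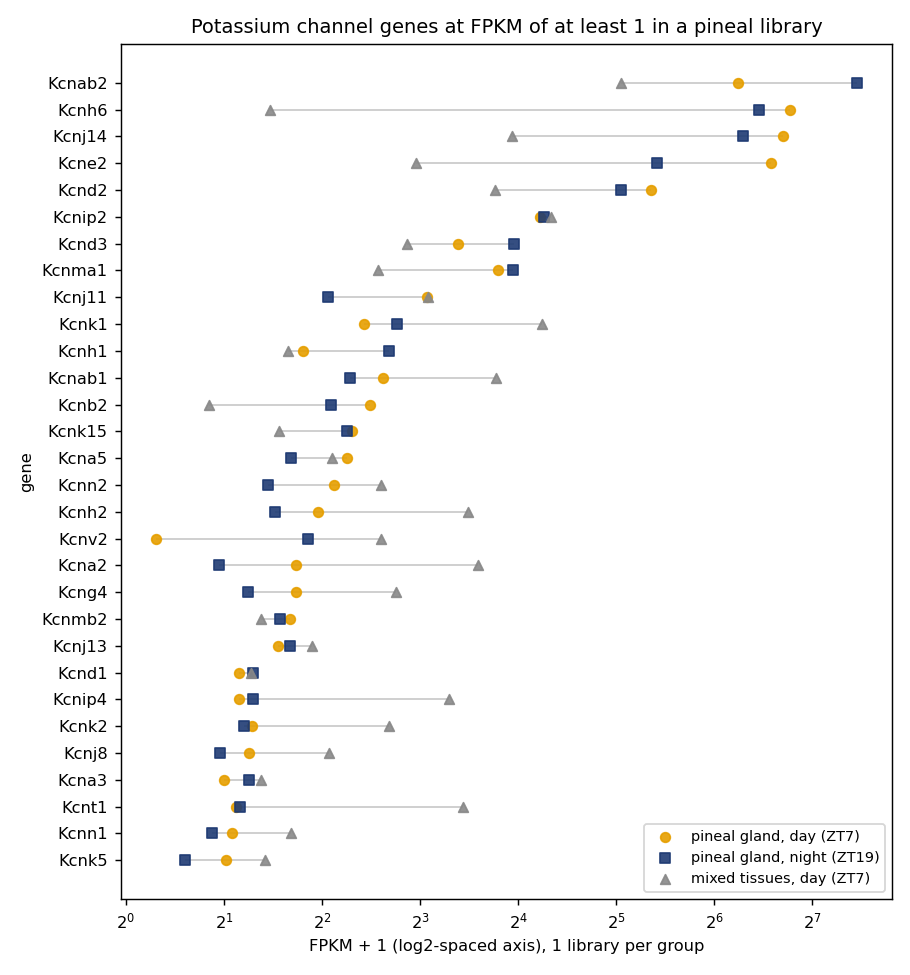
FPKM + 1 on a log2-spaced axis for 30 potassium channel genes that reached an FPKM of 1 in a pineal library, ordered by their higher pineal value; each symbol is 1 library (circle, pineal gland by day; square, pineal gland by night; triangle, mixed tissues) and the grey line spans the 3. Kcnab2, Kcnh6, Kcnj14 and Kcne2 stand apart at the top, with both pineal symbols to the right of the triangle.

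Kcnh6 encodes Erg2, a voltage-gated channel of the ether-a-go-go-related group, whose members pass most current while the cell repolarises. It was the most abundant potassium channel gene of the gland by day, at 108 FPKM (bounds 101 to 115), with 87.1 by night (79.3 to 95.4) and 1.77 in the mixed tissues (1.03 to 2.84). It ranked 260 of 16629 genes in the day library. Both pineal values lay far above the mixed-tissue value, and the day over mixed log2 ratio of 5.30 was the highest of any potassium channel gene (chr10:95400862-95421678, rn4). Its relatives were much lower in the gland: Kcnh2 (Erg1, the channel of cardiac repolarisation) was at 2.88 FPKM by day, 1.87 by night and 10.3 in the mixed tissues. Kcnh7 (Erg3) was at 0.0216, 0 and 0.879 FPKM. Kcnh6 thus made up 94.8% of the FPKM of the 8 Kcnh genes by day, whereas in the mixed tissues Kcnh2 led them with 47.3%. Kcnh1, an eag channel, was at 2.50 FPKM by day (1.57 to 3.79), 5.41 by night (3.62 to 7.79) and 2.14 in the mixed tissues (log2 0.87 for night over day, within 2-fold on this scale). Kcnh3, an elk channel of forebrain neurons, was listed at 0 in both pineal libraries and at 4.05 FPKM in the mixed tissues.

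Kcnj14 encodes Kir2.4, an inward rectifier that helps to hold the resting potential near that set by potassium. It was at 103 FPKM by day (96.7 to 110), 77.4 by night (70.1 to 85.3) and 14.3 in the mixed tissues (11.98 to 16.9; chr1:96293796-96297747). The gland exceeded the mixed tissues at both times, with log2 ratios of 2.77 and 2.36. Of the other 14 inward rectifiers, Kcnj11, Kcnj13 and Kcnj8 reached an FPKM of 1 by day, at 7.41, 1.94 and 1.39 FPKM, whereas all 15 did so in the mixed tissues. Kcnj14 held 88.0% of the family's FPKM by day. The same family's leading genes in the mixed tissues were nearly unseen in the gland: Kcnj10 (Kir4.1, the main inward rectifier of astrocytes) was at 0.543 FPKM by day, 0.268 by night and 25.9 in the mixed tissues. Its common partner Kcnj16 (Kir5.1) was at 0.201, 0.231 and 18.6 FPKM. The 5 astrocyte markers found summed to 127 FPKM by day, 91.5 by night and 686 in the mixed tissues, with none at 0. They were split: Gja1 was at 81.4, 61.9 and 70.7 FPKM. The other 4 (Gfap, Aqp4, S100b and Slc1a3) were each at least 4-fold lower in both pineal libraries than in the mixed tissues. The part of these markers in the Kcnj10 and Kcnj16 differences was not tested. The G protein-gated Kir3 genes, which open when inhibitory receptors free G protein beta-gamma subunits, were at most 0.259 FPKM in either pineal library: Kcnj3 was at 7.25 FPKM, Kcnj9 at 8.90, Kcnj6 at 3.68 and Kcnj5 at 1.61 in the mixed tissues.

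Promoter sequence was examined next, since members that are high in 1 tissue or move with time may share letters near the start. RefSeq's table for build GRCr8 held promoters of full length for 59 of the 87 genes. Only the first such start listed for a gene was used, and the 250 bases before it were searched on both strands. Kcne2 and Kcnj11 were not among the 59. The 2 genes most abundant by day are shown first, then the 2 that were higher by night, each in its own 5′ to 3′ direction, with capitals marking the only matches found to the motifs listed after them.
Kcnh6 (chr10:91449401-91449650, plus strand): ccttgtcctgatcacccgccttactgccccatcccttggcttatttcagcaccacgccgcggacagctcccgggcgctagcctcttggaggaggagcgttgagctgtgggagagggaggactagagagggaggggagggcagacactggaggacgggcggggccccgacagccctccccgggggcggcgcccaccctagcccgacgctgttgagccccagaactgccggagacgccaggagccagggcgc
Kcnj14 (chr1:105437259-105437508, minus strand): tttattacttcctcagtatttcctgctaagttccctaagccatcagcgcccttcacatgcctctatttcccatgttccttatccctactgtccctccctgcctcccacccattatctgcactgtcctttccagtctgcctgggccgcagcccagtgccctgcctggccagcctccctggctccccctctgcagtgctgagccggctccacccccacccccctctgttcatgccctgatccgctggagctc
Kcnab2 (chr5:168270761-168271010, minus strand): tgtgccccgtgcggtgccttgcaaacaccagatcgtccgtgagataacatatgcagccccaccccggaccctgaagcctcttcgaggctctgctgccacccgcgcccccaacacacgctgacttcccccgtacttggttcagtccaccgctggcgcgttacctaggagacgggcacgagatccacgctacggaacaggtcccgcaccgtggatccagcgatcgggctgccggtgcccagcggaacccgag
Kcnv2 (chr1:234412924-234413173, plus strand): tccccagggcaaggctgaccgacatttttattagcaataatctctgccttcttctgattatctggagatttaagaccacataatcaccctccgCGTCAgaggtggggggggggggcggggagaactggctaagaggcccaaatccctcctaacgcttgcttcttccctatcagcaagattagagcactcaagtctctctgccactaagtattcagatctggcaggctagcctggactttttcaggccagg
The cAMP response element TGACGTCA, bound by Creb and Crem factors, was in 0 of the 59 promoters and in 1.70% of all 27457 promoters of that length. Its shorter form TGACG or CGTCA, which every full element also contains, was in 11 of the 59 (18.6%) and in 18.96% of all promoters. Kcnv2 holds 1 such match, which starts 157 bases before the gene's start. The letters TAATCC or GGATTA, the core bound by the photoreceptor and pineal factors Crx and Otx2, were in 3 of the 59 (5.08%), namely Kcnk4, Kcnj9 and Kcng4, and in 6.33% of all. The E-box CACGTG, bound by clock factors, was in 2 of the 59 (3.39%), Kcne4 and Kcnh4, and in 5.79% of all. Each share was near or below that of all promoters, and a missing match says only that these letters are not in this window. GC content of the 59 had a median of 59.6% against 52.0% for all promoters.

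The Kv4 family summed to 50.6 FPKM by day, 48.1 by night and 20.3 in the mixed tissues, against 114, 94.6 and 21.7 for the Kcnh genes above. Kcnd2 (Kv4.2, a pore of the fast inactivating A-type current) was at 39.9 FPKM by day, 32.0 by night and 12.6 in the mixed tissues. Kcnd3 (Kv4.3) was at 9.47 FPKM by day (7.55 to 11.7), 14.6 by night (11.5 to 18.2) and 6.28 in the mixed tissues. Both were higher in each pineal library than in the mixed tissues but less than 4-fold (log2 1.59 and 0.53 by day). Kcnd1 (Kv4.1) lay between 1.22 and 1.46 FPKM in the 3 libraries. The calcium-binding Kv4 partner Kcnip2 (KChIP2) was almost level, at 17.7, 18.2 and 19.2 FPKM, whereas Kcnip3 was at 0.216, 0 and 6.67 and Kcnip4 at 1.23, 1.45 and 8.85. Kcnip2 had 3 transcript entries. One of them held 16.5 FPKM by day, 18.2 by night and 12.6 in the mixed tissues, another 1.17, 0 and 6.60, and the last was listed at 0 throughout. How reads shared by these forms were divided is an estimate of the authors' software.

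Kcnb2 (Kv2.2, a delayed rectifier) was at 4.62, 3.25 and 0.804 FPKM, the only one of the 87 genes at 1 or more in the gland and under 1 in the mixed tissues. The bounds of its mixed-tissue value, 0.339 to 1.61, span that cutoff of 1. The share of all genes with this pattern was not counted. Kv2 pores assemble with electrically silent subunits, which form no channel alone, and in photoreceptors Kcnv2 (Kv8.2) is such a partner. Kcnv2 was at 0.235 FPKM by day, 2.62 by night and 5.09 in the mixed tissues, a pool that includes retina. Of the other 9 silent subunit genes, Kcng4 reached an FPKM of 1 in the gland, at 2.32 by day and 1.37 by night, with 5.76 in the mixed tissues, and 8 of all 10 did so in the mixed tissues.

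Several Kv3 and Kv1 channel genes, whose products let neurons fire fast and hold axons quiet, were among the lowest relative to the mixed tissues. Kcnc1 (Kv3.1) was at 0.965, 0.960 and 28.4 FPKM (log2 -3.91 for day over mixed), and Kcnc2 (Kv3.2) at 0.850, 0.560 and 11.0. Kcna1 (Kv1.1) was at 0.107 FPKM by day, listed at 0 by night and at 19.1 in the mixed tissues, which gave the lowest day over mixed ratio of all (log2 -4.19). Kcna6 was at 0.420, 0.393 and 13.8 FPKM. Kcna5 (Kv1.5) stood at 3.77 FPKM by day, 2.22 by night and 3.29 in the mixed tissues, so it held 49.2% of the Kv1 FPKM of the gland by day. Kcna2 was at 2.34 FPKM by day (1.44 to 3.59), 0.933 by night (0.300 to 2.19) and 11.0 in the mixed tissues. The 8 Kv1 genes summed to 7.67, 4.94 and 52.2 FPKM. The 3 Kv3 genes summed to 13.6 FPKM by day, 12.8 by night and 83.2 in the mixed tissues. Only 1 of the 3, not reported here by name, reached an FPKM of 1 in the gland, and it lay within 4-fold of the mixed tissues. The 4 neuron markers found were split: Syt1 and Slc12a5 were at 105 and 108 FPKM by day against 63.8 and 51.6 in the mixed tissues, while Nefl and Tubb3 were at 0.0688 and 0.725 against 154 and 108. As a list they summed to 214 FPKM by day, 224 by night and 377 in the mixed tissues. Their part in the Kv1 and Kv3 differences was not tested.

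Neuronal Kv7 channels give the M-current, which acetylcholine and other transmitters switch off. The 3 Kv7 genes summed to 4.19 FPKM by day, 3.19 by night and 15.4 in the mixed tissues. Only 1 of them, not reported here by name, reached an FPKM of 1 in the gland. Kcnq3, a neuronal form, was at 0.184 FPKM by day, 0.348 by night and 4.17 in the mixed tissues, and Kcnq1, the cardiac and epithelial form, at 0.192, 0.120 and 2.39.

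**Figure D2:**
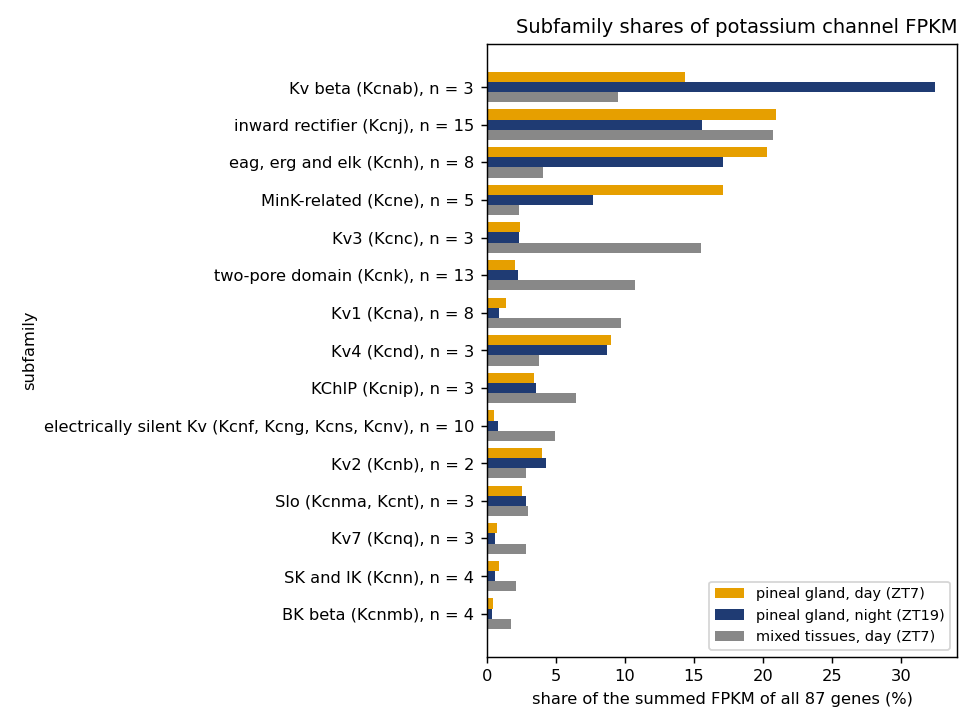
Share of the summed FPKM of all 87 potassium channel genes that each of 15 subfamilies held, in percent, for the pineal gland by day (orange), by night (blue) and the mixed tissues (grey), 1 library each. Kv beta subunits hold 14.3% by day and 32.4% by night, Kcnh genes hold 20.3% by day against 4.03% in the mixed tissues, and Kv3, Kv1 and two-pore genes are smaller in the gland.

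Calcium-activated channels were represented mainly by Kcnma1, the large conductance BK channel, which opens with both calcium and depolarisation. It was at 12.9 FPKM by day, 14.4 by night and 4.95 in the mixed tissues (log2 1.22 for day over mixed). Its beta subunits were low in the gland: Kcnmb2 was at 2.18, 1.96 and 1.59 FPKM and Kcnmb4, the neuronal form, was listed at 0 in both pineal libraries against 6.72 in the mixed tissues. Lrrc38, a gamma subunit that shifts BK opening to lower voltage and lies outside the Kcn names, was at 38.3 FPKM by day, 26.4 by night and 1.25 in the mixed tissues (log2 4.12 for day over mixed). Small conductance channels were led by Kcnn2 (SK2) at 3.36 FPKM by day (2.26 to 4.80), 1.72 by night (0.793 to 3.26) and 5.09 in the mixed tissues. The sodium-activated channel gene Kcnt1 was at 1.18, 1.25 and 9.84 FPKM.

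Two-pore domain channels carry background potassium current at rest. Kcnk1 (Twik1) was the highest in the gland, at 4.39 FPKM by day and 5.82 by night, but stood at 17.9 in the mixed tissues. Kcnk15 (Task5) was the one two-pore gene higher in both pineal libraries than in the mixed tissues, at 3.95, 3.79 and 1.96 FPKM. The acid-sensitive channels Kcnk3 (Task1) and Kcnk9 (Task3) were at 0.233 and 0 FPKM by day, 0.205 and 0 by night, and 12.8 and 10.2 in the mixed tissues. In all, 4 of 13 two-pore genes reached an FPKM of 1 by day and 10 in the mixed tissues.

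Set against the mixed tissues at midday, 3 of the 74 genes with a ratio exceeded 4-fold on the side of the gland (4.05%, background 2.29% of 11934 genes) and 22 at least 4-fold lower (29.7%, background 13.2%). The 3 were Kcnh6, Kcne2 and Kcnj14. The median log2 ratio was -1.52 against -0.27 for all genes compared. Of the 74 genes, 41 reached an FPKM of 1 in the mixed tissues but in neither pineal library, so they could only lie below the mixed tissues. The same held at midday for Kcnv2, which reached an FPKM of 1 by night but not by day. The median therefore describes the genes that passed this filter rather than all 87. The count of lower genes depended on low values: a pseudocount of 5 in place of 1 left 4 of 74, when the background was 4.37%, and one of 0.1 gave 43, when it was 21.9%. By night, with the same mixed library as control, 4 genes were at least 4-fold higher (5.41%, background 3.09%) and 22 lower (29.7%, background 14.4%). The additional higher gene was Kcnab2. The lower genes were not all the same as by day: Kcna2 and Kcnv1 were lower by night only, and Kcnq3 and Kcnv2 by day only.

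The lowest 15 day over mixed ratios, besides Kcna1, Kcnj10, Kcnj16, Kcnc1, Kcnk3, Kcnk9, Kcna6, Kcnj9, Kcnmb4, Kcnj3, Kcnc2 and Kcnip3 above, belonged to Kcnh3, Kcnt1 and Kcnv2. The remaining 7 genes at least 4-fold lower by day were Kcnab3, Kcnj6, Kcnip4, Kcnq3, Kcns3, Kcnj12 and Kcne1l (Kcne5), at 3.10 to 8.85 FPKM in the mixed tissues. In all 11 genes, some of them among those just named, were listed at 0 in both pineal libraries and at an FPKM of 1 or more in the mixed tissues: Kcna7, Kcne1l, Kcnf1, Kcng1, Kcnh3, Kcnj1, Kcnj4, Kcnj5, Kcnk9, Kcnmb4 and Kcns2. The share of all genes with this pattern was not counted. For a listed 0 on 1 kb of transcript, the floor of 3 fragments corresponds to 0.340 FPKM by day and 0.567 by night, and the upper exact Poisson bound to 0.418 and 0.697. Another 13 genes stayed under an FPKM of 1 in all 3 libraries, and 3 of these, Kcna10, Kcne1 and Kcnk18, were listed at 0 throughout.

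**Figure D3:**
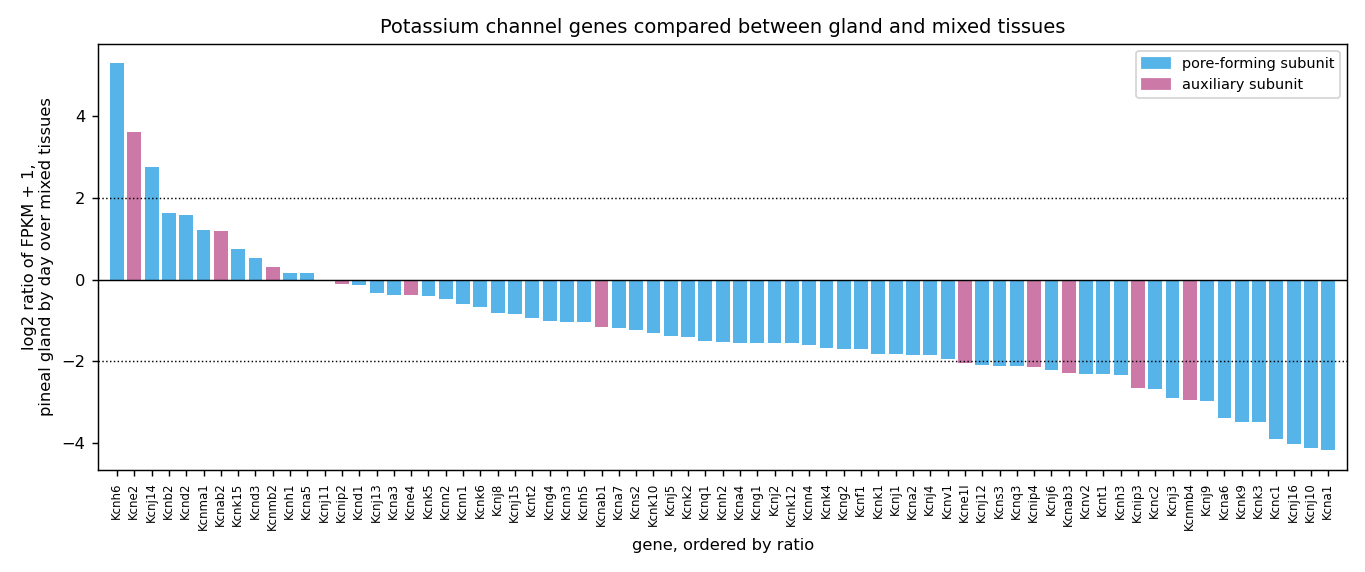
Log2 ratio of FPKM + 1 of the pineal gland by day over the mixed tissues for 71 of the 74 potassium channel genes compared, ordered by ratio; blue bars are pore-forming and pink bars auxiliary subunits, and dotted lines mark 4-fold. Bars for 3 genes, led by Kcnh6 at 5.30, pass the upper line and bars for 22 genes pass the lower, down to Kcna1 at -4.19.

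Between midnight and midday, 33 of the 87 genes could be compared, and 29 of the 33 lay within 2-fold on the scale of FPKM + 1. By night 2 were at least 2-fold higher (6.06%, background 4.18% of 9826 genes) and 2 at least 2-fold lower (6.06%, background 2.11%). Of the 29, Kcna2 was 2.51-fold lower and Kcnh1 2.16-fold higher by night in FPKM without the pseudocount. The median log2 ratio was -0.10 against -0.11 for all genes compared. With ratios centred on the median of all genes, 2 were higher and 1 lower. The other 54 genes were under an FPKM of 1 at both times.

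Kcnab2, which encodes Kv beta 2, a cytoplasmic subunit with an aldo-keto reductase fold that binds Kv1 channels and guides them to the axon, was the most abundant member by night. It was at 74.8 FPKM by day (69.2 to 80.7), 175 by night (164 to 187) and 32.1 in the mixed tissues (28.6 to 35.9). The night value was 2.34-fold the day value in FPKM (log2 1.22), and the bounds of the 3 libraries did not overlap (chr5:169624099-169710725). The entry of LOC500594 lies inside this span at 0.395 FPKM by day and 0.293 by night. Kcnab1 was at 5.15, 3.89 and 12.7 FPKM and Kcnab3 at 0.480, 0.270 and 6.24, neither of them higher by night. The Kv1 pores that Kcnab2 is known to bind were, as given above, at most 3.77 FPKM in the gland.

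Kcnv2 was the other gene higher by night, at 2.62 FPKM (1.43 to 4.41) against 0.235 by day (0.0301 to 0.832), a log2 ratio of 1.55. The day value amounts to about 2 fragments per kb, under the floor of 3 fragments (0.340 FPKM by day for 1 kb). The bounds did not overlap, but those of the night library rest on a depth taken from 4 gene models. With a pseudocount of 5 the ratio of Kcnv2 was 0.54, and a filter at an FPKM of 5 removed the gene.

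Kcne2 encodes Mirp1, a single-span subunit that changes the gating of Kcnq1, Kcnh2 and other pores. It was at 94.9 FPKM by day (88.6 to 102), 41.6 by night (36.3 to 47.5) and 6.80 in the mixed tissues (5.25 to 8.68). It was therefore 2.28-fold lower by night in FPKM (log2 -1.17) and above the mixed tissues at both times (log2 3.62 and 2.45; chr11:32283169-32290828). Kcne2 held 98.8% of the FPKM of the 5 Kcne genes by day. Kcne4 was at 0.958 FPKM by day, 0.808 by night and 1.55 in the mixed tissues, and Kcne3 at 0.148, 0.238 and 0.967. Choroid plexus epithelium also makes Kcne2, so 7 of its markers, chosen after the values were seen, are set beside it. They summed to 597 FPKM by day, 665 by night and 790 in the mixed tissues, with Ttr alone at 516, 607 and 685. Folr1 and Cldn2 were at 0.864 and 0.381 FPKM by day, against 12.9 and 11.6 in the mixed tissues, and Slc4a5 was at 54.6, 39.8 and 2.26. None of the 7 was listed at 0. Their part in the Kcne2 values was not tested.

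Kcnj11 encodes Kir6.2, the pore of the channel that ATP closes and that thereby ties membrane potential to metabolism. It was at 7.41 FPKM by day (5.72 to 9.44), 3.18 by night (1.85 to 5.11) and 7.45 in the mixed tissues. The night over day log2 ratio was -1.01, just past 2-fold, and fell short of it after centring (-0.90) or with a pseudocount of 5 (-0.60). The sulfonylurea receptor gene Abcc8, whose product surrounds this pore, was at 6.13 FPKM by day, 3.30 by night and 4.57 in the mixed tissues (log2 -0.73). Of the related vascular pair, Kcnj8 (Kir6.1) was at 1.39, 0.949 and 3.21 FPKM and Abcc9 at 3.93, 4.31 and 7.40. The 4 mural cell markers found summed to 33.0 FPKM by day, 27.2 by night and 52.6 in the mixed tissues, with none at 0, and their part was not tested.

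**Figure D4:**
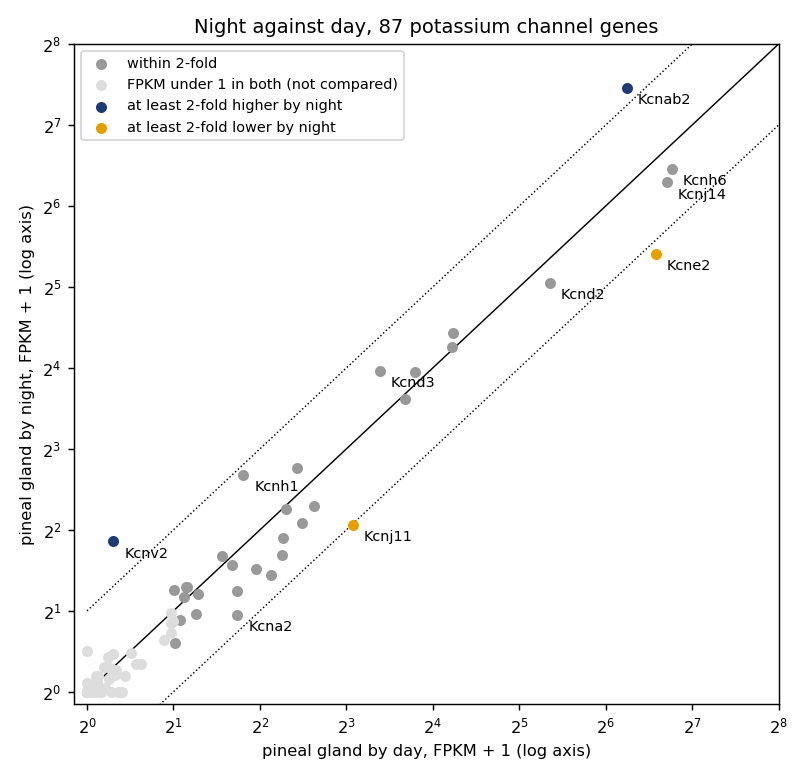
FPKM + 1 of 87 potassium channel genes in the pineal gland by day (x) and by night (y), both on log axes; each point is a gene, the solid line is equality and dotted lines mark 2-fold. Kcnab2 and Kcnv2 lie above the upper dotted line and Kcne2 and Kcnj11 below the lower one.

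Auxiliary subunits made up 35.3% of the potassium channel FPKM by day, 44.1% by night and 20.0% in the mixed tissues. Their sum was 198 FPKM by day, 244 by night and 107 in the mixed tissues, whereas the 72 pore-forming genes summed to 363, 309 and 431. Kcnab2 and Kcne2 moved in opposite directions between the 2 times.

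On rn4, 9 pairs of neighbouring members lay within 250 kb of each other. Kcne2 and Kcne1 are 53.7 kb apart on chromosome 11, and the first was at 94.9 FPKM by day while the second was listed at 0. On chromosome 4, Kcna5 at 3.77 FPKM by day lies 114 kb from Kcna1 at 0.107, which was the higher of the pair in the mixed tissues, at 19.1 against 3.29. The neighbours Kcnj9 and Kcnj10 on chromosome 13, 22.2 kb apart, were both low in the gland, at 0.259 and 0.543 FPKM by day.

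Of 20 genes listed as partners of potassium channels outside the Kcn names, 19 were found. Between night and day 13 had a ratio, and 0 of them reached 2-fold, where 4.18% of all genes were higher and 2.11% lower. By day, set beside the mixed tissues, 1 of 18 was at least 4-fold higher, Lrrc38, and 4 were lower (background 2.29% and 13.2%). The 4 were the Kv4 partner genes Dpp6 (0.284 FPKM by day, 0.209 by night and 25.3 in the mixed tissues) and Dpp10 (listed at 0 in both pineal libraries and at 7.35), the axonal protein gene Cntn2 (0.138, 0.198 and 14.1) and the kinase anchor gene Akap5 (0.363, 0.185 and 10.0). The Kv2 partner gene Amigo1 was at 6.84, 7.17 and 8.88 FPKM.

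Potassium that leaves through channels is brought back by the sodium-potassium pump, and cation-chloride cotransporters move it together with chloride. In the gland the pump genes were led by Atp1b2, a beta subunit, at 538 FPKM by day, 678 by night and 198 in the mixed tissues. Atp1b1, the beta subunit found in most organs, was lower in the gland, at 18.1, 12.8 and 457 FPKM. Of 14 genes of this list compared between night and day, 2 were at least 2-fold higher and 0 lower, beside 4.18% and 2.11% of all genes. They were Slc12a2 (Nkcc1, which loads chloride into cells), at 48.5 FPKM by night against 16.7 by day (log2 1.48), and Fxyd2, a pump regulator, at 2.99 and 0.486 (log2 1.42). The day value of Fxyd2 lay near the floor of 3 fragments, 0.340 FPKM by day for 1 kb of transcript. Against the mixed tissues by day 1 of 17 was at least 4-fold higher and 8 were lower, beside 2.29% and 13.2% of all genes.

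**Figure D5:**
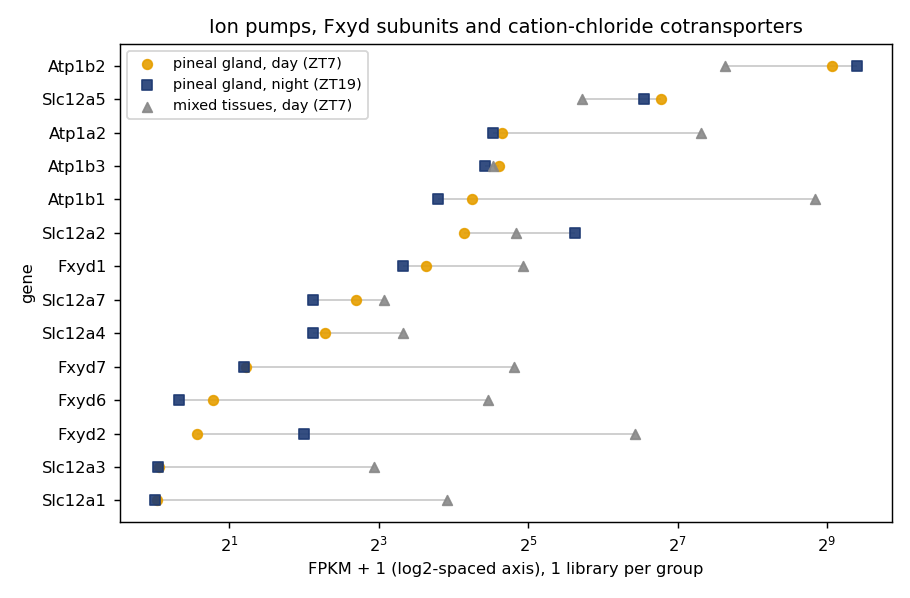
FPKM + 1 on a log2-spaced axis for 14 genes of the sodium-potassium pump, its Fxyd subunits and the cation-chloride cotransporters with an FPKM of 1 or more in any library, ordered by the pineal day value; symbols are the 3 libraries (circle, day; square, night; triangle, mixed tissues). Atp1b2 and Slc12a2 have the night symbol furthest to the right, and Atp1b1 has the triangle far to the right of both pineal symbols.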

How the data were processed

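Values are FPKM as the authors deposited them, named so per the file headers. Per the submitters' processing notes, TopHat 1.3.1 and Cufflinks 1.2.0 were used with build rn4. Not given in the sources used here are their options, any trimming or duplicate removal, and how multiply mapped reads were treated, steps that can shift genes with several forms. Per the labels' protocols, poly(A) RNA from 10 µg of total RNA was fragmented, primed at random, amplified in 15 cycles and sequenced as paired 51-base reads, 1 lane per library. The protocol names no step that marks strand, so reads within the bases that overlapping genes share may not be told apart.

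The series table matched the sample files in 51267 of 51267 values. Its 17089 entries were summed by symbol (5 members had several entries), and those without a symbol were kept apart. Starts in the table count from 0, since 99.5% of olfactory receptor models then have a length divisible by 3, and are given here from 1. Log2 ratios used a pseudocount of 1, a filter at an FPKM of 1 in the higher library, and thresholds of 2-fold (night against day) and 4-fold (against mixed tissues). Alternatives were other pseudocounts, filters, centring and the highest entry per symbol. The ratio script was tested on simulated data. Python 3.11.15, numpy 2.4.6, pandas 2.3.3 and scipy 1.17.1 were used.

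Genes named with values were those at an FPKM of at least 1 in any library, apart from Kcnh7, Kcne3, LOC500594 and genes listed at 0 throughout. Their ratios are given for members past 2-fold between night and day, the largest ratios against the mixed tissues and the most abundant genes, with a few lower relatives added beside them after their values were seen. Members and lists were chosen with earlier results of these data known. Some genes are counted but not reported here by name.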

Additional observations from a re-analysis of the deposited data

How the results depend on the processing

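No paired analysis was possible because each group had 1 library. Counts and medians were recomputed under 6 alternatives. Counts named here moved by more than 1.5 times, and medians moved by 0.25 or more on the log2 scale or changed sign. With a pseudocount of 5 in place of 1, members at least 2-fold apart by night were 1 higher and 1 lower instead of 2 and 2, and members at least 4-fold below the mixed tissues were 4 by day and 4 by night instead of 22 and 22. With 0.1 the latter counts were 43 and 42. A filter at an FPKM of 5 left 1 member higher by night. Centring on all genes left 1 lower by night and 14 below the mixed tissues by night. It turned the night over day median from -0.10 to 0.0065, a change of sign by less than 0.25. The median against the mixed tissues, -1.52 by day and -1.50 by night, was -2.78 and -2.80 with 0.1, -0.54 and -0.54 with 5, -1.15 and -1.23 without a filter, -1.83 and -1.87 with a filter at 5, and -1.25 and -1.14 after centring. A larger pseudocount shrinks the ratios of low genes by construction. Of 55 ratios of single members past a threshold, 39 fell short of it with a pseudocount of 5 and 15 after centring, and none changed sign under the alternatives that gave a value. Depth limits statements on members near the floor of 3 fragments, above all by night.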
